A study of Homo sapiens with 30 samples.

Results

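The genes described here make cholesterol and fatty acids. They are 33 genes chosen by name, taken as the rows of the deposited expression table that carry those names, and 33 of 33 were present among 26255 rows. All 33 had a value of at least 1 FPKM (fragments per kilobase of transcript, scaled to library size, a level that is corrected for gene length) in at least 1 line, and are compared with the 12670 genes that also reached it. The set has 6 genes of the mevalonate pathway, 11 of sterol synthesis from squalene, 5 of SREBP control, 1 of sterol transport, 5 of acetyl-CoA, NADPH and fatty acid synthesis, 4 desaturases and elongases, and 1 of glycerolipid synthesis.

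The study asked how the ERK and AKT pathways alter what the transcription factor ERG does in prostate cells. RNA-seq was performed in RWPE1 cells, a line derived from normal prostate epithelium, that carried a pair of retroviral vectors each. RWPE1-vector cells carried empty pQCXIH and empty pBabe-puro, RWPE1-ERG cells carried ERG (UniProt isoform 1) in pQCXIH with empty pBabe-puro, RWPE1-mAKT cells carried empty pQCXIH with myristoylated AKT in pBabe-Puro, and RWPE1-ERG/mAKT cells carried both genes. All lines were kept under puromycin and hygromycin in serum-free KSFM medium with EGF and bovine pituitary extract, so these are selected cell lines with viral overexpression and not tissue. The 4 lines had 3 libraries each, and the authors deposited 1 pooled FPKM value per gene and line, so there is no spread between libraries, no standard error and no test at any expression value given here. The labels do not say whether the 3 libraries came from separate cultures. Accessible chromatin (ATAC-seq) of the lines with ERG, mAKT or both, ERK2 and H3K27me3 ChIP-seq of the vector and ERG lines, H3K27me3 of RWPE1-ERG S96E cells (ERG with a phosphomimetic change), ERG ChIP-seq of RWPE1-ERG/mAKT cells and ERG ChIP-seq of vehicle-treated VCaP cells, a prostate cancer line, were deposited as 1 peak list each.

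Cholesterol is built from acetyl-CoA through mevalonate, isoprenoid diphosphates and squalene, and fatty acids are built from the same acetyl-CoA by carboxylation, chain extension and desaturation. Genes of both routes are switched on by the SREBP transcription factors, which SCAP carries out of the endoplasmic reticulum when sterols are low and which INSIG proteins hold there when sterols are high. SREBP-2 acts mainly on the sterol genes and SREBP-1c mainly on the fatty acid genes, and the isoprenoids made on the way are used to prenylate small GTPases such as Ras. SREBPs bind the sterol regulatory element beside NF-Y, which binds CCAAT, and Sp1, which binds GC boxes. AKT signalling is known to raise SREBP activity in many cells.

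The DNA just upstream of a start is shown for the 7 members whose level differed by more than 1.5-fold between any 2 lines on the log2(FPKM + 1) scale. Sequences are from the GRCh37 genome (hg19), 5′ to 3′ on the strand of the gene, and cover the longest run without an annotated exon in the 250 bases before the canonical GENCODE start. Capitals mark CCAAT or its complement ATTGG and the ETS family sequence CCGGAAG or its complement CTTCCGG. ERG is an ETS factor. FDPS is at chr1:155278407-155278538 (plus strand), MVD at chr16:88729570-88729705 (minus strand), MSMO1 at chr4:166248571-166248818 (plus strand), ACSS2 at chr20:33464165-33464374 (plus strand), INSIG1 at chr7:155089338-155089485 (plus strand), SREBF1 at chr17:17740317-17740550 (minus strand) and FADS2 at chr11:61595522-61595650 (plus strand).
FDPS: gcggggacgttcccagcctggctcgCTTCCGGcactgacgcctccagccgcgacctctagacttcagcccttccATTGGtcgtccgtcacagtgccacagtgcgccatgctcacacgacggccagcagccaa
MVD: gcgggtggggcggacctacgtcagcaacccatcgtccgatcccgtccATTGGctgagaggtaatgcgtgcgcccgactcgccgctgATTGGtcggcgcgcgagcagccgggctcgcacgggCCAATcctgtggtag
MSMO1: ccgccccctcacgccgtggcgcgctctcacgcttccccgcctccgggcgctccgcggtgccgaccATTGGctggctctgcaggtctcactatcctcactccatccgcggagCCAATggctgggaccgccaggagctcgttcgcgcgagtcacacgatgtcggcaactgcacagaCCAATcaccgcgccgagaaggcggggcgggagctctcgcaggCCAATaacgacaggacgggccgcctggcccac
ACSS2: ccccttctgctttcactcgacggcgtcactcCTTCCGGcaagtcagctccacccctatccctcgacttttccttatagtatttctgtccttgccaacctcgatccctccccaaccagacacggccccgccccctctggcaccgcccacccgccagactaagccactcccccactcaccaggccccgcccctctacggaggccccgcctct
INSIG1: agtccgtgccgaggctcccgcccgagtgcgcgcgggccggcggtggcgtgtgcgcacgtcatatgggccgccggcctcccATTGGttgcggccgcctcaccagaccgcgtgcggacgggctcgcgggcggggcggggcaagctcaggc
SREBF1: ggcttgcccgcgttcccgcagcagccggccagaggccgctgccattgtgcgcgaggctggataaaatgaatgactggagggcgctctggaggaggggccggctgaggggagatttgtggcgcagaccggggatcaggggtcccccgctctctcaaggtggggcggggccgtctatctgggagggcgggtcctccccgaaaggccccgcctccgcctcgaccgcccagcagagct
FADS2: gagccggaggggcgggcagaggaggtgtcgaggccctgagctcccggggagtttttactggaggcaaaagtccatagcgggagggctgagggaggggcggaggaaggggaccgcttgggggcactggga

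In the window from 250 bases before to 50 after each start, CCAAT in either orientation was present in 21 of the 33 members, or 63.6% (95% Wilson interval 46.6 to 77.8%, counting error only), and in 36.3% of the 11199 genes with an annotated start. The matches were concentrated in the sterol route. Of the 17 mevalonate and sterol members, 15 held the motif (88.2%) and PMVK and CYP51A1 did not, whereas 6 of the other 16 members did (37.5%). MSMO1 has 4 matches in the stretch printed above and MVD has 3, while FADS2, SREBF1 and ACSS2 have none. The GC box GGGCGG was found in 32 of 33 members against 75.1% of genes, in windows whose median GC content was 69.0% for the members and 66.3% for all genes. The sterol regulatory element TCACNCCAC was rare in both sets, with 2 of 33 members (FASN, and SREBF2, whose product is the SREBP that acts on sterol genes) against 1.13% of genes. The members' share of 6.06% has a 95% Wilson interval of 1.68 to 19.6%, which lies above that background but rests on 2 genes. Of the 17 mevalonate and sterol members, 0 held this motif. The sequence CCGGAAG was present in 4 members, ACSS2, CYP51A1, FDPS and INSIG2, against 20.2% of genes. The E-box CACGTG was present in 4 members, INSIG1, LSS, SC5D and SCAP, against 10.7% of genes. The AP-1 sequence TGANTCA was present in 1 member, ME1, against 4.18%. Such matches describe letters in a window and are not binding sites.

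The lines carried what their labels say. The ERG gene was at 0.26 FPKM in RWPE1-vector and 0.43 FPKM in RWPE1-mAKT cells and at 358 and 328 FPKM in RWPE1-ERG and RWPE1-ERG/mAKT cells, and AKT1 was at 58.7, 64.2, 156 and 281 FPKM in the vector, ERG, mAKT and ERG/mAKT lines. The summed FPKM of 5 basal keratinocyte markers was 6256, 2042, 6378 and 5088 in the same order, and that of 6 luminal markers was 1808, 4570, 2064 and 2534. The luminal marker KLK3, which defines secretory prostate cells, was at 0 in all lines, and of 5 stromal and immune markers COL3A1 was at 0 and COL1A1 at 1.78 to 2.18 FPKM. Both sums differed most from vector in RWPE1-ERG cells and were nearer to it in RWPE1-ERG/mAKT cells, which also carry ERG. The part of these markers in the values below was not tested. In a mixed culture fewer cells of a kind and less RNA per cell cannot be told apart. The deposited values of all genes summed to 846058 in RWPE1-vector, 1246090 in RWPE1-ERG, 971508 in RWPE1-mAKT and 959572 in RWPE1-ERG/mAKT cells, so a comparison against RWPE1-ERG depends on how the lines are scaled. Values "after rescaling" are those with each line brought to the same FPKM sum, and all others are on the deposited scale.

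The members were abundant and varied little. Their levels ran from 2.92 FPKM (TM7SF2 in RWPE1-vector) to 473 FPKM (SCD in RWPE1-mAKT), and the median ratio of a member's highest to its lowest line was 1.33. FASN, the fatty acid synthase, had the smallest ratio at 1.07 and FADS2, the delta-6 desaturase, the largest at 2.14. After rescaling these were 1.45 and 1.93, and TM7SF2 at 1.21 and SREBF1 at 2.53 were then the extremes. On the log2(FPKM + 1) scale, 7 of 33 members passed 1.5-fold in at least 1 of the 6 pairs of lines, which is 21.2% of members beside 19.7% of all genes tested. The set as a whole therefore passed this limit about as often as other genes did.

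**Figure D1:**
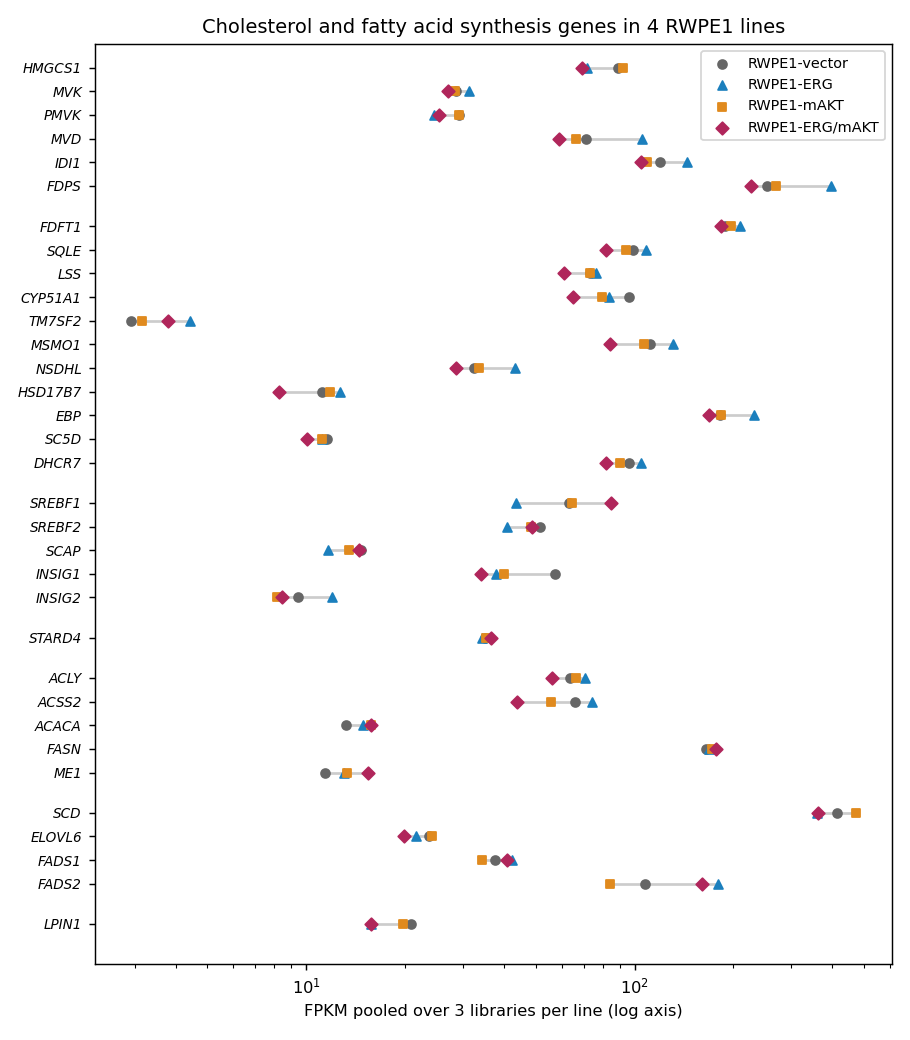
FPKM of each of the 33 members in the 4 RWPE1 lines, on a log axis, grouped by role from the mevalonate pathway at the top to glycerolipid synthesis at the bottom. Each symbol is the authors' pooled value of 3 libraries with no error bar available, and the grey line joins the lowest and highest line. RWPE1-ERG has the highest symbol for 13 of the 17 mevalonate and sterol genes and RWPE1-ERG/mAKT the lowest for 15, an order that depends on the scaling of RWPE1-ERG.

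Most mevalonate and sterol genes had the same highest and lowest line on the deposited scale. Of these 17 genes, 13 were highest in RWPE1-ERG cells, where 31.9% of all genes are highest, and 15 were lowest in RWPE1-ERG/mAKT cells, where 36.4% of all genes are lowest. After rescaling, 14 of 17 were highest in RWPE1-vector and 2 in RWPE1-ERG, and 8 were lowest in RWPE1-ERG/mAKT. The shares of all genes in these positions are given only for the deposited scale, so the rescaled counts cannot be set against other genes. For ERG over vector, 13 of 17 had a log2 ratio above 0 (48.1% of all genes did) with a median of 0.15. After each line was rescaled to the same FPKM sum only 3 of 17 did, but the median of all genes was then −0.49. With the median of all genes subtracted from each ratio, the count was again 13 of 17. For ERG/mAKT over mAKT, 16 of 17 were below 0 (63.6% of all genes) with a median of −0.19, and the count was 16 of 17 after rescaling and 15 of 17 after centring. For ERG/mAKT over vector the count below 0 was also 16 of 17 (60.0% of all genes), with a median of −0.19, and again 16 and 15 under those scalings. The rescaled median of all genes was −0.05 for ERG/mAKT over mAKT and −0.22 for ERG/mAKT over vector. TM7SF2, a sterol reductase at 2.92 to 4.42 FPKM, was the exception in both.

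FDPS, which makes the farnesyl diphosphate used for squalene and for protein prenylation, was at 254 FPKM in RWPE1-vector, 398 in RWPE1-ERG, 270 in RWPE1-mAKT and 226 in RWPE1-ERG/mAKT cells. RWPE1-ERG stood apart and the other lines lay close together, with a log2 ratio of 0.65 for ERG over vector and −0.81 for ERG/mAKT over ERG. A larger ratio for ERG over vector was found in 6.49% of genes tested, and a lower one for ERG/mAKT over ERG in 3.83%. After rescaling to the same sum, FDPS kept both directions at 0.09 and −0.44. FDPS has near-identical processed copies in the genome, and how the authors' counting split such reads is not given in the sources used here.

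MVD, the decarboxylase that yields isopentenyl diphosphate, followed FDPS with 71.0, 105, 66.1 and 58.8 FPKM in the vector, ERG, mAKT and ERG/mAKT lines. Its log2 ratio was 0.56 for ERG over vector, just under the 1.5-fold limit of 0.58, and −0.83 for ERG/mAKT over ERG. After rescaling these were 0.01 and −0.46, so no difference from vector was seen on that scale and the difference with mAKT was smaller. IDI1, the isomerase of the next step, was at 119.8, 144.4, 109.4 and 104.6 FPKM. It was also highest in RWPE1-ERG, with log2 ratios of 0.27 and −0.46 in those comparisons, but after rescaling these were −0.29 and −0.09, so it was then below vector. MVK, mevalonate kinase, varied only from 27.02 to 31.39 FPKM.

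HMGCS1, which makes HMG-CoA early in the route, was at 89.1, 71.5, 92.5 and 69.2 FPKM in the vector, ERG, mAKT and ERG/mAKT lines. Both lines with ERG were lower than both lines without it, with log2 ratios of −0.31 without mAKT and −0.41 with it, and these were −0.87 and −0.40 after rescaling. PMVK, phosphomevalonate kinase, was also lower in both lines with ERG, at 29.2, 24.5, 29.2 and 25.4 FPKM. No other mevalonate gene was lower with ERG in both backgrounds on the deposited scale, but after rescaling MVK (−0.41 and −0.06) and IDI1 (−0.29 and −0.05) were too.

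Among the sterol genes from squalene on, the level was highest for EBP, the sterol isomerase, with 182, 232, 184 and 168 FPKM, and for FDFT1, squalene synthase, with 189, 209, 196 and 184 FPKM. Both were highest in RWPE1-ERG and lowest in RWPE1-ERG/mAKT, but after rescaling ERG over vector turned to −0.21 for EBP and −0.41 for FDFT1, and ERG/mAKT over ERG was −0.09 and 0.19. MSMO1, the C-4 methyl sterol oxidase, was at 111, 131, 107 and 84.1 FPKM and was the sterol gene past 1.5-fold, with a log2 ratio of −0.64 for ERG/mAKT over ERG (−0.26 after rescaling). NSDHL and HSD17B7, which act with MSMO1 to remove the C-4 methyl groups, had ratios of −0.58 and −0.57 in that comparison (−0.21 and −0.22 after rescaling). The steps that demethylate C-4 had the lowest ratios of the 11 sterol genes in it, and reads of HSD17B7 may be shared with a near-identical copy. These steps stayed lowest after rescaling, which shifts members almost alike and so could hardly change their order. All 11 were below 0 for ERG/mAKT over ERG, with ratios from −0.64 to −0.14 (56.4% of all genes were below 0). After rescaling 8 of the 17 mevalonate and sterol genes were below 0 in place of 16, but the median of all genes was then 0.28. CYP51A1, the lanosterol demethylase, was at 96.3, 83.5, 79.4 and 65.0 FPKM, lower than vector in each of the other lines, with −0.56 for ERG/mAKT over vector. SQLE, the squalene epoxidase, LSS, the lanosterol synthase, and DHCR7, the last reductase of one branch, were each lowest in RWPE1-ERG/mAKT, at 81.6, 61.1 and 81.8 FPKM. After rescaling LSS and DHCR7 were lowest in RWPE1-ERG instead, with 0.06 and 0.03 for ERG/mAKT over ERG.

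**Figure D2:**
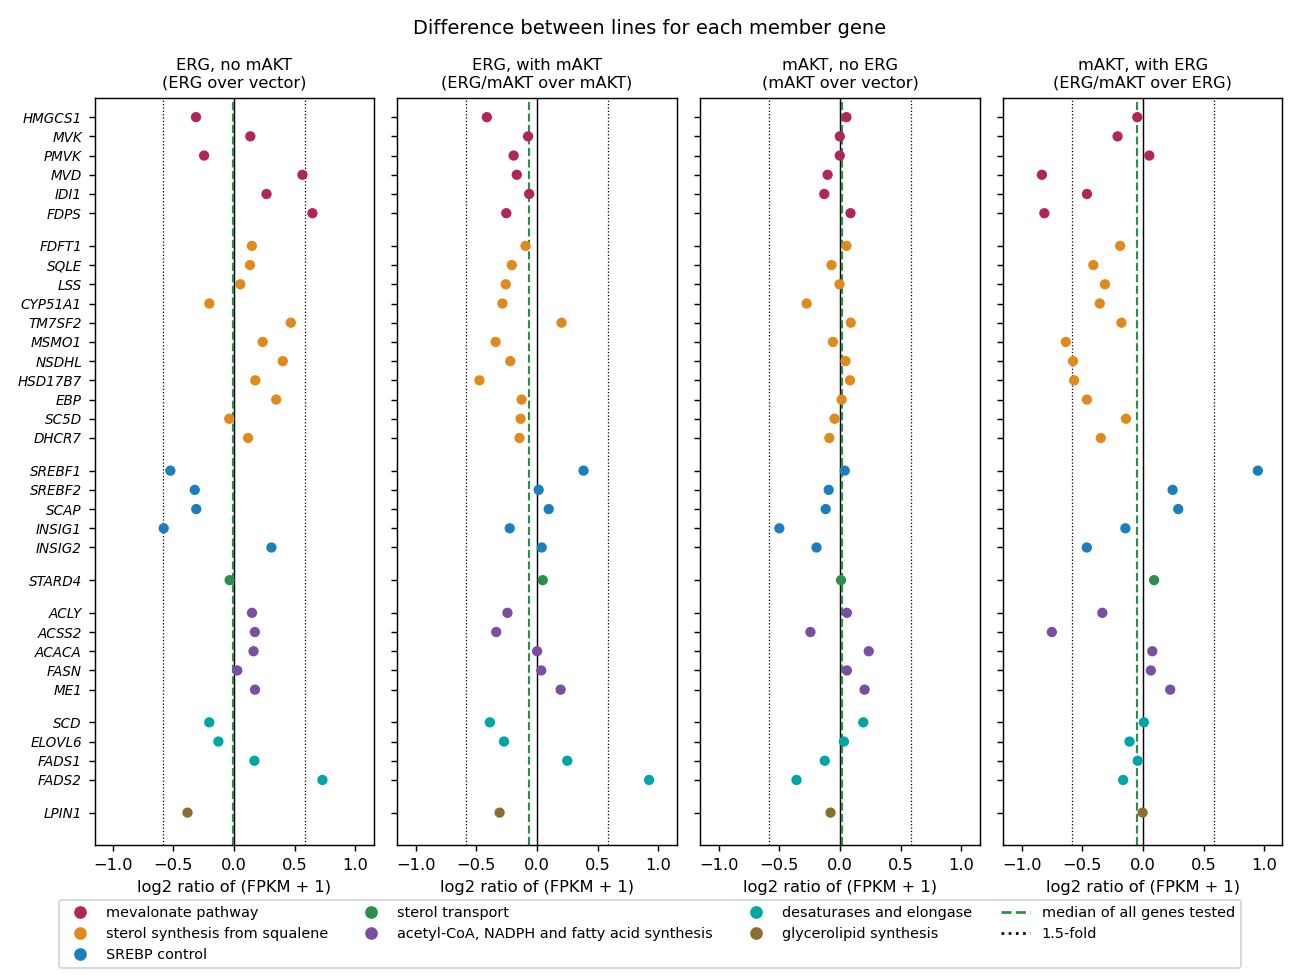
Log2 ratio of (FPKM + 1) for each member in the 4 comparisons that change 1 gene: ERG without mAKT, ERG with mAKT, mAKT without ERG and mAKT with ERG. Points are pooled values with no error, the dashed line is the median of the 12670 genes tested and the dotted lines are 1.5-fold. Sterol and mevalonate points lie mostly right of 0 in the first panel and left of 0 in the second and the last, and the first and last panels shift by −0.48 and 0.32 when the lines are rescaled to the same sum.

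SREBF1, which encodes SREBP-1, was at 62.9 FPKM in RWPE1-vector, 43.4 in RWPE1-ERG, 64.7 in RWPE1-mAKT and 84.7 in RWPE1-ERG/mAKT cells. It was lowest with ERG alone and highest with ERG and mAKT together, the reverse of the highest and lowest lines of FDPS and MVD. The log2 ratio was −0.52 for ERG over vector, 0.38 for ERG/mAKT over mAKT and 0.95 for ERG/mAKT over ERG, and 2.12% of genes had a larger ratio in the last comparison. After rescaling the values were −1.07, 0.40 and 1.32, so none changed direction.

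SREBF2 was at 51.6, 41.0, 48.3 and 48.8 FPKM and SCAP, the SREBP escort, at 14.7, 11.6, 13.5 and 14.5 FPKM. Both were lowest in RWPE1-ERG, with ratios of −0.32 and −0.31 for ERG over vector (−0.87 and −0.83 after rescaling). INSIG1, the retention protein that is itself an SREBP target, was at 57.1, 37.8, 40.1 and 34.1 FPKM. It was higher in RWPE1-vector than in every other line, with a log2 ratio of −0.50 for mAKT over vector, −0.58 for ERG over vector and −0.72 for ERG/mAKT over vector. For mAKT over vector 2.42% of genes had a lower ratio than INSIG1, which was the largest difference of any member in that comparison. INSIG2, the less sterol-responsive partner, was at 9.47, 12.0, 8.16 and 8.41 FPKM. STARD4, a carrier of cholesterol between membranes, stayed between 34.2 and 36.6 FPKM.

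FASN was at 166, 169, 172 and 177 FPKM in the vector, ERG, mAKT and ERG/mAKT lines. ACACA, the acetyl-CoA carboxylase that feeds it, was at 13.2, 14.9, 15.8 and 15.8 FPKM, and ME1, the malic enzyme that supplies NADPH, at 11.4, 13.0, 13.3 and 15.4 FPKM. These 3 genes were lowest in RWPE1-vector and highest in RWPE1-ERG/mAKT, with ratios of 0.09, 0.24 and 0.40 between those lines, none past 1.5-fold. After rescaling all 3 were lowest in RWPE1-ERG, with −0.53, −0.36 and −0.34 for ERG over vector, and FASN turned to −0.09 for ERG/mAKT over vector. Another pair of enzymes makes the acetyl-CoA. ACSS2, which makes it from acetate, was at 66.0, 74.5, 55.6 and 43.9 FPKM, with −0.75 for ERG/mAKT over ERG and −0.58 for ERG/mAKT over vector (−0.38 and −0.76 after rescaling). ACLY, which makes it from citrate, was at 63.8, 70.8, 66.4 and 55.9 FPKM, with the same highest and lowest line as ACSS2. After rescaling both were highest in RWPE1-vector, with −0.38 for ACSS2 and −0.40 for ACLY for ERG over vector, and ACLY was lowest in RWPE1-ERG.

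FADS2 had the highest ratio of any member for ERG over vector and for ERG/mAKT over mAKT. It was at 108 FPKM in RWPE1-vector, 179 in RWPE1-ERG, 84.0 in RWPE1-mAKT and 160 in RWPE1-ERG/mAKT cells. Both lines with ERG were above both lines without it, 1.66-fold without mAKT and 1.91-fold with mAKT. The log2 ratios were 0.73 and 0.92, exceeded by 5.56% and 2.38% of genes tested, and 0.17 and 0.94 after rescaling. These comparisons share no library. FADS1, the delta-5 desaturase that works next to FADS2 in making long polyunsaturated fatty acids, was at 37.5, 42.3, 34.3 and 41.0 FPKM, with smaller ratios of 0.17 and 0.25 (−0.38 and 0.27 after rescaling). FADS1 and FADS2 are neighbours at chr11:61567097-61634826 and the table gives them that same span, so reads near their shared region cannot be assigned with certainty. SCD, the delta-9 desaturase, was at 414, 359, 473 and 361 FPKM, lower in both lines with ERG. ELOVL6, which extends palmitate, ran from 19.9 to 24.2 FPKM. LPIN1, a phosphatidate phosphatase, was at 20.9, 15.8, 19.8 and 15.8 FPKM, also lower in both lines with ERG.

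In counts past 1.5-fold, mAKT over vector had 0 members higher and 0 lower, beside 2.19% and 1.89% of all genes. ERG over vector had 2 higher, FDPS and FADS2, and 0 lower, beside 7.27% and 2.92%. ERG/mAKT over mAKT had 1 higher, FADS2, and 0 lower, beside 4.43% and 2.45%. ERG/mAKT over ERG had 1 higher, SREBF1, and 4 lower, MVD, FDPS, MSMO1 and ACSS2, beside 4.21% and 6.85%. ERG/mAKT over vector had 1 lower, INSIG1, beside 3.34%, and 0 higher, beside 5.41%. mAKT over ERG had 2 lower, MVD and FADS2, beside 7.34%, and 0 higher, beside 3.5%. These counts are too small to set the members apart from other genes. The median of the 33 was 0.00 for mAKT over vector (0.02 for all genes), 0.13 for ERG over vector (−0.01), −0.18 for ERG/mAKT over ERG (−0.04), −0.14 for ERG/mAKT over mAKT (−0.07), −0.18 for ERG/mAKT over vector (−0.06) and −0.09 for mAKT over ERG (0.04).

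Scaling decides the sign of those medians against RWPE1-ERG cells. Rescaled to the same sum, the member median was −0.41 for ERG over vector and 0.19 for ERG/mAKT over ERG, while that of all genes was −0.49 and 0.28. Of all genes past 1.5-fold, 71.3% were higher for ERG over vector in the deposited values and 8.31% after rescaling, and for ERG/mAKT over ERG these were 38.0% and 82.0%. In the same way the share was 53.6% and 33.6% for mAKT over vector, 61.8% and 39.3% for ERG/mAKT over vector, and 32.3% and 79.1% for mAKT over ERG. The member median lay above that of all genes by 0.14 for ERG over vector and below it by 0.13 for ERG/mAKT over ERG. These gaps were 0.08 and 0.09 after rescaling. Without a pseudocount, a factor per line shifts every log2 ratio alike. The smaller gaps therefore come with the pseudocount and the genes tested, and are not a weaker difference of the members. ERG/mAKT over mAKT, whose lines have near-equal sums, was barely touched, with a member median of −0.14 before and −0.13 after.

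The comparisons of ERG without and with mAKT use separate libraries and so can be set side by side. Of the 33 members, 15 had the same sign in both (45.5%, against 56.3% of all genes), and 14 were higher with ERG alone but lower with ERG on top of mAKT (42.4%, against 27.4%). Of the 17 mevalonate and sterol genes 12 did so (70.6%), 11 after centring on the median of all genes and 2 after rescaling, where 2.43% of all genes did. Across genes Pearson's r between the ERG ratios was 0.25 over the 33 members and 0.28 over all genes, and without FADS2 the members gave −0.003. The correlation over members therefore rests on FADS2, and genes are not independent replicates. For mAKT without and with ERG, 21 members had the same sign (63.6%, against 51.4%) and r was 0.20 over members and 0.21 over all genes.

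**Figure D3:**
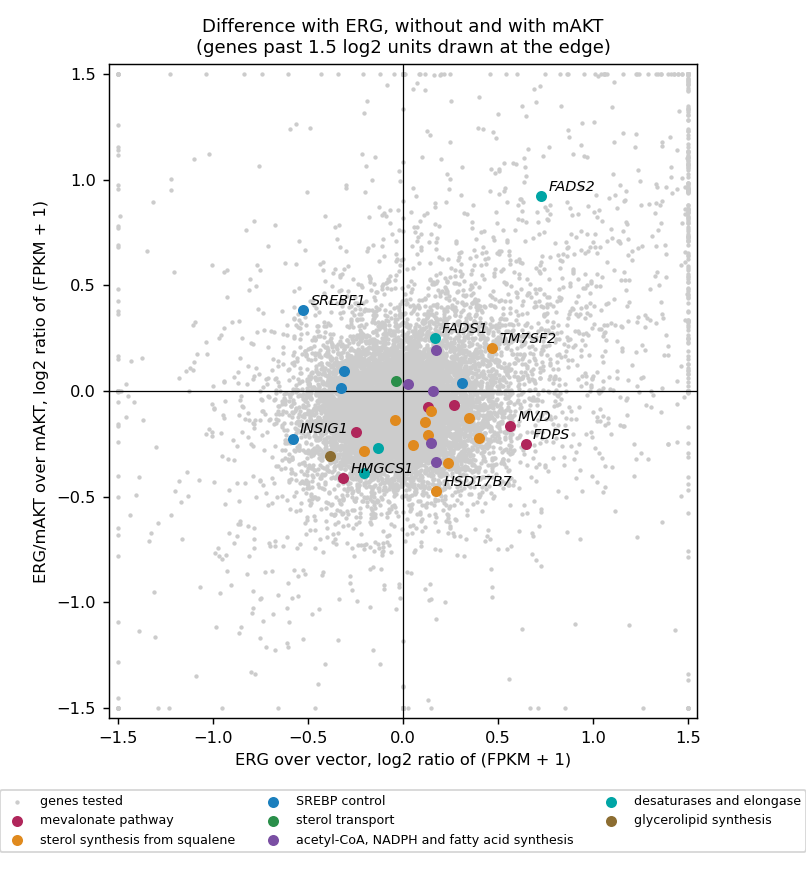
Log2 ratio of (FPKM + 1) with ERG in the absence of mAKT (horizontal axis, ERG over vector) and in its presence (vertical axis, ERG/mAKT over mAKT), for the 12670 genes tested in grey and the 33 members coloured by role. Most mevalonate and sterol genes lie in the lower right, FADS2 lies furthest of the members to the upper right and SREBF1 in the upper left. Rescaling to the same sum moves the median of all genes by −0.48 on the horizontal axis and by 0.01 on the vertical one.

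The joint difference was summarised as the ratio of ERG/mAKT over mAKT less that of ERG over vector. It holds the ERG over vector ratio, so its sign moves with the scaling. Its median was −0.18 over members and −0.06 over all genes, with 22 of 33 members below 0, and after rescaling it was 0.38 and 0.43, with 5 of 33 below 0. FDPS was lowest at −0.90, followed by MVD at −0.73 and HSD17B7 at −0.65, and SREBF1 was highest at 0.91. SCAP, INSIG1 and SREBF2 came next at 0.41, 0.36 and 0.34. The 4 highest members were thus SREBP control genes, but INSIG2 of the same group was at −0.27. INSIG1 was lower with ERG in both backgrounds, at −0.58 without mAKT and −0.23 with it. After rescaling FDPS, MVD and HSD17B7 were at −0.32, −0.16 and −0.12. SREBF1, SCAP, INSIG1 and SREBF2 were at 1.47, 0.94, 0.92 and 0.90, and INSIG2 was at 0.26, below the member median. Rescaling shifts members almost alike, so these members could hardly have ceased to be the lowest and the highest.

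Chromatin at the members was open in every line for which a list was used. An ATAC peak lay within 1 kb of the start of 33 of 33 members in RWPE1-ERG cells (92.8% of 11199 genes), 33 of 33 in RWPE1-mAKT (92.3%) and 32 of 33 in RWPE1-ERG/mAKT cells (89.3%), where ELOVL6 had none. At these starts the median fold enrichment of the peak was 8.64, 6.42 and 7.54, and the extremes were MVK at 13.4 in RWPE1-ERG and LPIN1 at 2.55 in RWPE1-ERG/mAKT. The start of SREBF1, whose RNA differed most between RWPE1-ERG and RWPE1-ERG/mAKT, was the 1 member start outside the peak itself in each line, with the nearest edge 182, 279 and 196 bp away. Fold values are from 1 library a line and different depths, so they were not compared between lines. H3K27me3, the Polycomb mark of silent genes, was within 1 kb of 1 member start in RWPE1-vector cells (FADS1, 814 bp away, 1.66-fold), 0 in RWPE1-ERG and 0 in RWPE1-ERG S96E cells, beside 8.63%, 3.36% and 7.3% of genes. A count of 0 among 33 genes has an upper 95% Wilson bound of 10.4%, so fewer marks than at other genes could not be detected with so few members.

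ERG peaks lay near about as many members as other genes, within counting error. In RWPE1-ERG/mAKT cells an ERG peak lay within 20 kb of the start of 3 of 33 members (9.09%, 95% Wilson interval 3.14 to 23.6%), against 17.4% of genes. They were TM7SF2, with a peak centred 8718 bp upstream at 3.53-fold, LPIN1, with an intronic peak 7835 bp downstream at 4.11-fold, and FASN. The FASN peak at chr17:80064353-80064585 is centred 8357 bp upstream of the start, with 5.65-fold enrichment and a −log10 q-value of 2.51. It was the only one of the 3 below a q-value of 0.01, a limit met by a peak near 1.18% of genes. It overlaps ATAC peaks in all 3 lines, and it holds the ETS core GGAA or TTCC 6 times in 233 bases. An ERG peak of VCaP cells at chr17:80064291-80064697 covers all 233 bases at 3.41-fold, so the site was listed in both cell lines. In VCaP cells 5 of 33 members had an ERG peak within 20 kb (15.2%, 95% Wilson interval 6.65 to 30.9%, against 14.7% of genes). They were PMVK, TM7SF2, MSMO1, INSIG1 and FASN. None of these peaks passed a q-value of 0.01, a limit met by a peak near 4.41% of genes. FDPS, MVD, FADS2, SREBF1 and ACSS2, which passed 1.5-fold in a pair of lines, had no ERG peak within 20 kb in either list.

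ERK2 peaks near members were weak, as were most peaks of these lists. A q-value of 0.01 was passed by 178 peaks of the ERG list and 306 of the vector list. With ERG 12 of 33 members had an ERK2 peak within 20 kb (36.4%, 95% Wilson interval 22.2 to 53.4%, against 23.3% of genes), and the vector line had 21 of 33 (63.6%, against 59.7%). The vector list holds 41276 peaks and the ERG list 5721, and the effect of list length on these counts was not tested. In RWPE1-ERG cells the strongest was at SREBF1, chr17:17740530-17740931, centred 430 bp upstream of the start at 4.86-fold with a −log10 q-value of 1.52, and the vector list has a peak 593 bp upstream at 3.69-fold. At a q-value limit of 0.01, the ERG line had 0 such members (1.24% of genes) and the vector line had 1 (1.75% of genes). That member was FDPS, whose intronic peak at chr1:155289685-155290013 has 5.54-fold enrichment. FADS1 and FADS2 share the same ERK2 peaks, 3 in RWPE1-ERG cells, the nearest centred 1333 bp inside FADS1.

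**Figure D4:**
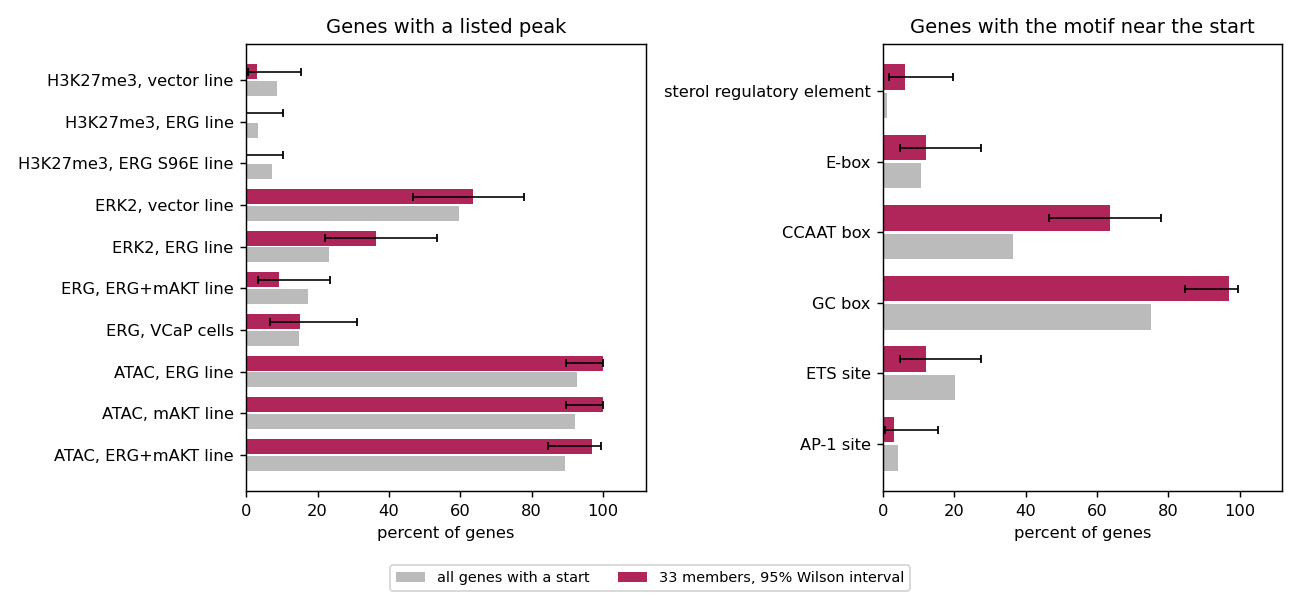
Percent of the 33 members (dark bars, with 95% Wilson intervals that cover counting error only) and of the 11199 genes with a start (grey bars) that have a listed peak (left) or a short motif near the start (right). Peaks are counted within 1 kb for ATAC and H3K27me3 and within 20 kb for ERG and ERK2. The members' bar lies clear of the background for CCAAT (63.6% against 36.3%) and for the GC box, and near it or within its interval for ERG and ERK2 peaks. The interval of the sterol regulatory element (1.68 to 19.6%) also lies above its background of 1.13%, but it rests on 2 members. In RefSeq promoters 1 of 30 members held that element.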

How the data were processed

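RNA-seq reads of 12 libraries (3 per line) were aligned to hg19 with TopHat2 by the authors, who deposited FPKM values from Cuffdiff, 1 pooled value per gene and line. Their fold changes, test statistics, p-values and q-values in the same table were not used. 0 columns of per-library values were found, so depth per library and spread are unknown. ChIP-seq and ATAC-seq peaks were called by the authors with MACS2 (versions 2.1.2 and 2.2.7.1 where the headers give one) after Bowtie2 alignment and duplicate removal, and the deposited lists give the fold enrichment, a ratio over background, and −log10 p- and q-values of each peak. ChIP DNA of RWPE1 cells was pooled from 3 experiments by the authors. Header read totals ranged from 8393459 to 35688481 where given.

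Log2 ratios used a pseudocount of 1 and genes with at least 1 FPKM in any line, and so understate differences of low genes. Genes past 1.5-fold were counted without a test. Starts were the canonical transcripts of GENCODE 44 on GRCh37, found for 11199 genes. A peak counted within 1 kb (ATAC, H3K27me3) or 20 kb (ERG, ERK2). All levels are given for members past 1.5-fold in any pair or highest in their role, and further members were named after their values were seen. From each other list, up to 3 genes with the largest ratios are named. Members, lists and tests were chosen with earlier results of these data known. In the alternatives, the upper-quartile scaling, the sum without the 10 highest genes and the RefSeq promoters were added after seeing the data. The code was tested on simulated data. A list attached to the VCaP input and a list attached to the LY294002-treated VCaP ERG ChIP hold other peaks than their labels describe, and neither was used, so ATAC of RWPE1-vector cells was not analysed here. The code used pysam 0.24.0, matplotlib 3.10.9, pandas 2.3.3, numpy 2.4.6 and scipy 1.17.1 in Python 3.11.15.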

Additional observations from a re-analysis of the deposited data

How the results depend on the processing

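No paired analysis was possible because the deposited values are pooled over the 3 libraries of a line, and for the same reason no library could be left out. Of 171 values under alternative settings, 125 stayed within the limits used to call a value unchanged. Many of these were counts of 0 that stayed 0, and the limits were wide for shares. ERG peaks in RWPE1-ERG/mAKT cells counted as unchanged at 9.09% of members within 20 kb and 21.2% within 50 kb, beside 17.4% and 35.4% of genes. Rescaled to the same FPKM sum, the member median was −0.19 for mAKT over vector, reversed to −0.41 for ERG over vector and to 0.19 for ERG/mAKT over ERG, was −0.35 for ERG/mAKT over vector, and turned from −0.09 to 0.26 for mAKT over ERG. Members past 1.5-fold were then 1 lower for mAKT over vector, 0 higher and 10 lower for ERG over vector, 3 higher and 0 lower for ERG/mAKT over ERG, 3 lower for ERG/mAKT over vector, and 5 higher and 1 lower for mAKT over ERG. On that scale 36.3% of all genes were lower and 3.29% higher for ERG over vector. For ERG/mAKT over ERG 13.4% were higher and 2.96% lower, and for mAKT over ERG 15.6% were higher and 4.13% lower. The shares lower were 3.43% for mAKT over vector and 6.58% for ERG/mAKT over vector. Scaled to the sum without the 10 highest genes, an alternative added after seeing the data, the medians were −0.15, −0.26 (reversed), 0.086 (reversed), −0.30 and 0.16 (also turned) in the same order, with 1 lower for mAKT over vector, 0 higher and 9 lower for ERG over vector, 0 lower for ERG/mAKT over ERG, 3 lower for ERG/mAKT over vector, and 3 higher and 1 lower for mAKT over ERG. On that scale 17.8% of all genes past the limit were higher for ERG over vector and 70.8% for ERG/mAKT over ERG. The median of all genes was then −0.36 and 0.19 in these comparisons. With upper-quartile scaling, also added later, the median for ERG/mAKT over ERG was −0.076, with 1 higher and 2 lower for ERG over vector, 1 higher for ERG/mAKT over vector and 1 higher for mAKT over ERG, and 51.1% of genes past the limit were higher for ERG/mAKT over ERG. Centred on the median of all genes, 1 member was higher for ERG/mAKT over vector. With a pseudocount of 0.1, 1 was lower for ERG over vector and 2 for ERG/mAKT over vector. Among these settings, the share of all genes past the limit is given only for rescaling to the same sum. Member counts under the other settings therefore cannot be set against other genes.

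At 2-fold, no member passed for ERG over vector (0 higher), ERG/mAKT over ERG (0 higher, 0 lower), ERG/mAKT over mAKT (0 higher) or ERG/mAKT over vector (0 lower), and 1 was lower for mAKT over ERG, FADS2. The share of all genes past 2-fold is not given here, so these counts cannot be set against other genes. With equal numbers of regions or a fold enrichment of at least 2, 0% of members had H3K27me3 in RWPE1-vector cells, beside 4.05% and 2.38% of genes. At a q-value of at most 0.01, 3.03% of members had an ERK2 peak in RWPE1-vector and 0% in RWPE1-ERG cells, beside 1.75% and 1.24% of genes. For ERG peaks these were 3.03% of members in RWPE1-ERG/mAKT and 0% in VCaP cells, beside 1.18% and 4.41% of genes. Within 50 kb, 84.8% had an ERK2 peak in RWPE1-vector cells, beside 81.7% of genes. In the RefSeq promoters, matched for 30 of 33 members, CCAAT was found in 60.0% against 37.2% of 9112 genes. The sterol regulatory element was found there in 1 of 30 members (3.33%) against 1.14% of genes.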

Other observations

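Genes next to the synthesis routes were read from lists grouped by function, which were chosen with earlier results of these data known. The genes named, up to 3 from each list, are those with the largest ratios. Of 12 genes of sterol sensing, esterification and export, 11 were at 1 FPKM or more, and the median log2 ratio was 0.00 for ERG over vector and 0.07 for ERG/mAKT over ERG, with 1 past 1.5-fold lower in the first comparison (2.92% of all genes) and 1 in each direction in the second (4.21% higher and 6.85% lower), all on the deposited scale. NPC2, which moves cholesterol out of lysosomes, had the order of FDPS, at 269, 397, 285 and 220 FPKM in the vector, ERG, mAKT and ERG/mAKT lines, with log2 ratios of 0.56 and −0.85. ABCG1, a sterol exporter, was, like SREBF1, lowest with ERG alone and highest with both genes, at a low level of 2.00, 0.72, 1.59 and 2.03 FPKM, with ratios of −0.80 and 0.82. MYLIP, which degrades lipoprotein receptors, was at 1.84, 1.80, 1.99 and 2.89 FPKM.

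Of 17 other genes of fatty acid and glycerolipid synthesis, 16 were at 1 FPKM or more, and 2 passed 1.5-fold for ERG/mAKT over ERG, both higher, beside 4.21% of all genes higher and 6.85% lower on the deposited scale. ACSL5, an acyl-CoA synthetase, was at 0.09, 0.43, 0.49 and 2.91 FPKM, with log2 ratios of 1.45 for ERG/mAKT over ERG and 1.39 for ERG/mAKT over mAKT. ACSL1, a related enzyme, was at 9.39, 8.57, 10.9 and 14.8 FPKM and was likewise highest with both genes. GPAM, which starts glycerolipid synthesis, was at 4.86, 3.03, 4.98 and 3.42 FPKM, lower in both lines with ERG.

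None of the 8 fatty acid oxidation genes passed 1.5-fold in any of the 4 comparisons that change 1 gene, where 0 were higher and 0 lower. CPT1A, which lets long fatty acids into mitochondria, was at 23.4, 24.3, 24.3 and 17.6 FPKM, lowest with ERG and mAKT together. ACADVL, which starts their oxidation, was at 49.4, 62.6, 54.0 and 45.9 FPKM.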
